A study of Caenorhabditis elegans with 14 samples.

Results

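In Caenorhabditis elegans embryos carrying eri-1(mg366), 168 protein-coding genes of the 20535 in the count tables had antisense small RNA reads 4 or more times as abundant after ultraviolet (UV) irradiation as without it. A gene entered the group when the 2 total small RNA libraries of the UV experiment held 50 or more antisense reads for it together and its antisense reads per 1000000 non-rRNA reads (CPM) were at least 4-fold higher with UV, with 0.5 added to both counts. Of the 3802 genes with 50 or more antisense reads, 191 (5.02%) passed that fold, and 23 of them, all histone genes by their his- names, were then set aside by the rule. No gene named hsp-, rpl- or rps- passed the fold. The genes were thus chosen by these antisense counts, and the difference between the 2 total eri-1 libraries is given below as a description, without a test.

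The study concerned antisense small RNAs against ribosomal RNA, and its small RNA part has 9 libraries, 1 in each group. A total library with UV and one without came from embryos of the eri-1(mg366);3xflag::gfp::nrde-3 strain, irradiated at 50 mJ/cm2 and left for 2 h at 20 °C, or kept at 20 °C. From the same strain and treatments came an NRDE-3-bound library each, pulled down with the anti-FLAG M2 antibody. NRDE-3-bound libraries were also made after cold shock (4 °C for 12 h, then 20 °C for 2 h) from the eri-1(mg366);3xflag::gfp::nrde-3 strain and from the 3xflag::gfp::nrde-3 strain on the N2 background. Total libraries whose labels name no transgene came from susi-1(R457H), from cold-shocked wild-type N2, and from N2 at 20 °C. With 1 library per group no spread between samples can be measured, and all intervals printed below are 95% intervals of counting error only.

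Antisense small RNAs in C. elegans are mostly made by RNA-dependent RNA polymerases, which copy a target RNA into short siRNAs of the opposite strand. Argonaute proteins bind these siRNAs and carry them to matching RNAs. NRDE-3 is the Argonaute that takes siRNAs into the nuclei of somatic cells, where transcription of the target is repressed. ERI-1 is an exonuclease needed for one class of endogenous siRNAs, and in its absence NRDE-3 is known to lose most of its usual siRNAs.

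The total libraries of the UV experiment held 3123387 non-rRNA reads with UV and 1415938 without, and the 9 libraries ranged from 357435 to 3123387. The 8 measured microRNAs of the embryonic mir-35 family summed to 101992 CPM with UV and 71319.5 CPM without, and 5 larval microRNAs to 24.3 and 38.1 CPM. Sense reads of germline markers summed to 428 CPM with UV and 908 CPM without (9 of 9 detected in each), of muscle markers to 1592 and 2182 CPM (6 of 6 in each), of intestinal markers to 197 and 83.3 CPM (1 of 6 at 0 in each), of hypodermal markers to 479 and 429 CPM (6 of 6 in each) and of neuronal markers to 77.8 CPM with UV, with 1 of 6 at 0, and 98.2 CPM without. Beside these markers, sense reads of all protein-coding genes had a ratio of 0.678 per non-rRNA read, UV over no UV. Sense reads of microRNAs numbered 1233314 with UV and 359199 without. The part of the markers in the antisense differences was not tested. Fewer cells of a type, less RNA per cell and a shift in library make-up cannot be told apart in whole embryos.

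The 168 genes together had 20556 antisense reads with UV, against 1016 without UV, a ratio per non-rRNA read of 9.17 (8.61 to 9.78). Antisense reads of all protein-coding genes differed by a ratio of 1.15, and those of the 3634 other genes with enough reads by 1.07. Single genes had 46 to 1138 antisense reads with UV (median 84.0), against 0 to 61 without UV (median 4.00). Without UV, 25 genes had no antisense read, 45 had 1 to 3 and 98 had more. The ratios ran from 4.01 to 381 with a median of 8.14, and 63 genes reached 10 or more. At the edge of the rule, C16C10.4 had 57 reads with UV and 6 without (4.010) and cct-5 had 66 and 7 (4.020), with aldo-2 between them (4.013), while mdt-9 with 48 and 5 (3.998) and goa-1 and rpt-1 with 83 and 9 each (3.985) were left out.

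**Figure D1:**
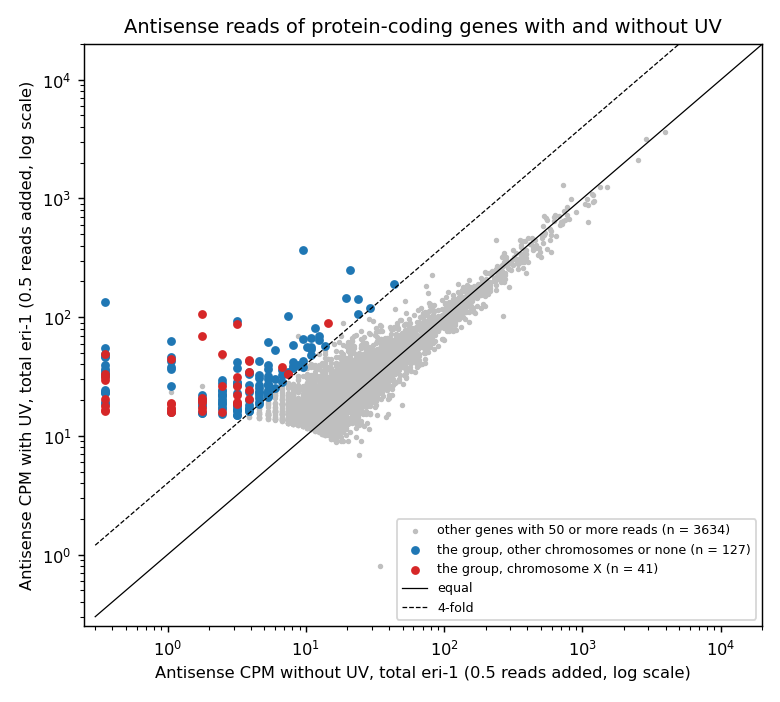
Antisense CPM with UV (vertical) against antisense CPM without UV (horizontal) in total small RNA of eri-1(mg366) embryos, on log scales with 0.5 reads added, for protein-coding genes with 50 or more antisense reads in the pair. The 168 genes lie above the dashed 4-fold line (blue, and red for the 41 on chromosome X), mostly at low levels without UV, while the 3634 other genes (grey) lie mainly along the line of equality.

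Y59C2A.2, a gene on chromosome II (2192348 to 2204137, minus strand, build WBcel235), had the most antisense reads of the group, 1138 with UV against 13 without. Its antisense level was 364 CPM with UV and 9.18 CPM without in total RNA, 232 CPM with UV and 0 without in NRDE-3-bound RNA, 44.8 CPM in eri-1 and 0.517 CPM in N2 in NRDE-3-bound RNA after cold shock, 7.88 CPM in susi-1(R457H), 0 in cold-shocked N2 and 17.7 CPM in untreated N2. Its sense reads numbered 86 with UV and 51 without, so 93.0% of its reads were antisense with UV and 20.3% without. math-45, which encodes a MATH-domain protein (chromosome II, 1510287 to 1517454), had 783 antisense reads with UV and 29 without, and 0 sense reads in both libraries. Its antisense level in total eri-1 RNA was 251 CPM with UV and 20.5 CPM without, and 0 to 3.73 CPM in the other 7 libraries. ant-1.1, an adenine nucleotide translocator of the mitochondrial inner membrane (chromosome III, 13463163 to 13464652), had the most reads without UV of the group, 595 with UV against 61 without.

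Transcription factors and their cofactors were the largest assigned role, with 18 genes and a median ratio of 10.4. Together these genes had 2036 antisense reads with UV and 56 without. Roles were assigned within the group only, and how common each role is among other genes was not counted. The rule chose the genes by the ratio, so nothing is read from the size or order of the roles. hlh-2 encodes the E/Daughterless helix-loop-helix protein (chromosome I, 7190788 to 7193920). It had 420 antisense reads with UV and 0 without, at least 63.5-fold higher when 3 counts per library are set as the floor for 0. In NRDE-3-bound RNA hlh-2 was at 79.1 CPM with UV and 0 without, and at 86.7 CPM in eri-1 and 0.517 CPM in N2 after cold shock, while total RNA held 0 in susi-1(R457H), 0 in cold-shocked N2 and 3.73 CPM in untreated N2. The eri-1 libraries with UV or after cold shock were thus the high ones, and each N2 library was low.

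ldb-1, the LIM-domain-binding cofactor (chromosome X, 11028917 to 11040612), had 330 antisense reads with UV and 2 without, a ratio of 74.8 (20.5 to 620). The period-family gene lin-42 had 148 with UV and 0 without, and the homeobox gene ceh-48 had 123 with UV and 0 without. Further genes of this role were blmp-1 (60 with UV, 0 without), the nuclear receptor nhr-25 (55 and 0), the hunchback-like gene hbl-1 (59 and 1) and the RFX factor daf-19, which directs cilium genes (74 and 3). Among 7 genes of chromatin and chromosomes, the cohesin gene coh-1 had 216 with UV and 2 without, the SET-domain gene set-19 had 97 and 0, and the dosage compensation gene dpy-27 had 83 and 4.

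Genes of the cuticle and extracellular matrix numbered 6, with 609 antisense reads with UV and 8 without. Their median ratio, 26.0, was the highest of the roles, and as above nothing is read from that order. dpy-17, a cuticle collagen gene (chromosome III, 5107330 to 5108492), had 197 with UV and 1 without, dpy-14 had 113 and 0, and dig-1, a very large basement membrane protein, had 113 and 1. The 12 genes of the cell surface had 1327 with UV and 56 without. Among them the innexin inx-3, a gap junction subunit, had 153 with UV and 0 without, and the cadherin cdh-4 had 288 and 4. The 14 cytoskeletal genes had 1520 with UV and 87 without, led by the actin-capping subunit cap-1 with 318 and 10. unc-70, the beta-spectrin gene, had only 46 and 4 there, the lowest UV count of the role.

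Of 9 genes for RNA-binding proteins and Argonautes, sup-26 had 171 antisense reads with UV and 0 without. The microRNA Argonautes alg-1 (chromosome X, 13949110 to 13956261) and alg-2 are close relatives, so reads could be shared between them. alg-1 had 135 with UV and 5 without, and alg-2 had 75 and 3. The 3 translation elongation genes were eef-1A.2 with 279 and 20, eef-1A.1 with 95 and 6, and eef-2 with 178 and 19. eef-1A.1 and eef-1A.2 are near-identical copies, and how their reads were divided is uncertain.

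Of 10 genes of protein folding and the endoplasmic reticulum, the calcium pump gene sca-1 had 451 with UV and 27 without, and the retention receptor gene erd-2.1 had 274 and 4. F44E5.4 with 117 and 4 and F44E5.5 with 110 and 0 are near-identical heat shock genes without an hsp- name, and their split is uncertain. The 12 genes of mitochondria and metabolism had a median ratio of 5.12, the 11 of kinases and signalling 6.80, the 7 of ubiquitin, SUMO and autophagy 5.11, and the 5 of the cell cycle and replication 8.61. The other 54 genes were assigned no role. yrn-1, the Y RNA gene, and W05H9.3 are listed as protein-coding in the deposited tables and as non-coding RNA in Ensembl, and R11F4.3 and T28F4.6 matched no Ensembl gene.

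**Figure D2:**
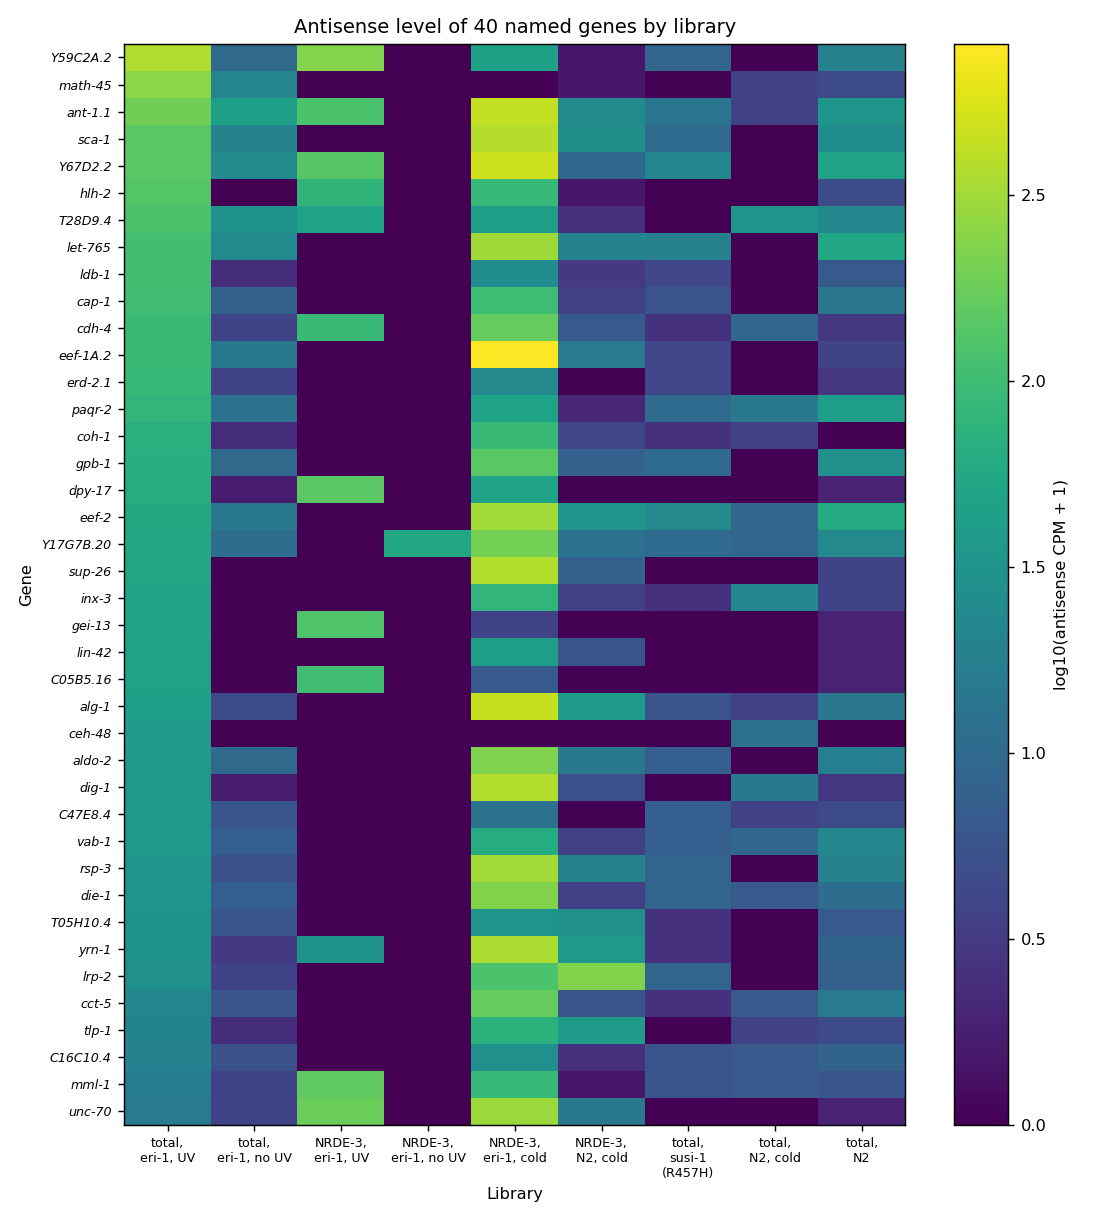
Antisense level, as log10(CPM + 1), of 40 genes named by a fixed rule (rows, from most to fewest reads with UV) in the 9 small RNA libraries (columns). Each gene has a value in the total eri-1 library with UV, and many are as high or higher in the NRDE-3-bound eri-1 library after cold shock, while most are at 0 in the NRDE-3-bound eri-1 library without UV.

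Chromosome X held 41 of the 168 genes, 24.4%, against 7.23% of the 3802 genes with enough reads and 13.4% of all protein-coding genes. The rule did not use position. The share was 39.7% of the 63 genes at a ratio of 10 or more and 15.2% of the 105 genes below 10. Among the genes with enough reads it was 4.67% of the 493 at ratios of 2 to 4, 4.53% of the 2011 at 1 to 2 and 10.8% of the 1107 under 1, so it was higher at both ends than in the middle. Scaled to total microRNA reads, 101 genes passed and 31.7% of them were on X; scaled to all assigned reads, rRNA included, 907 passed and 7.39% were on X. Genes on X by name included ldb-1, erd-2.1, eef-1A.2, coh-1, inx-3 and alg-1. The other chromosomes held 24 (I), 28 (II), 36 (III), 23 (IV) and 14 (V) of the genes, and V was the one with the lowest share relative to genes with enough reads, 8.33% against 14%.

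**Figure D3:**
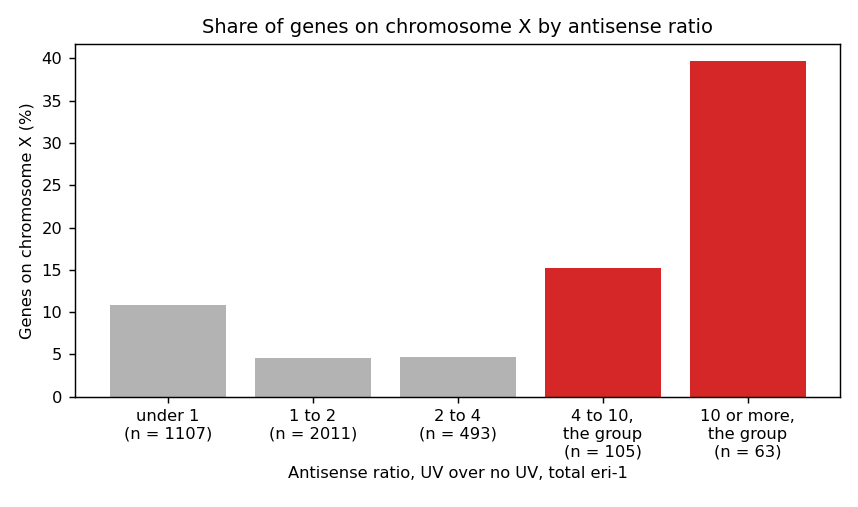
Share of genes on chromosome X (vertical, %) by antisense ratio of UV over no UV in total eri-1 RNA (horizontal), for protein-coding genes with 50 or more antisense reads, with the histone genes set aside in the 2 right-hand classes. The share is 39.7% at ratios of 10 or more and 15.2% at 4 to 10 (red, the group), against 4.53% to 10.8% in the 3 classes below (grey). The group reached 50 reads mainly through the library with UV, and the shares were not tested.

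Reads on the other strand of an overlapping gene can be counted as antisense, so annotated overlaps were counted. Exons of 38 of the 168 genes (22.6%) overlapped an exon on the other strand, against 25% of the other genes with enough reads. The next count was made for the group only, whose antisense reads with UV the rule chose to be high. What share of the reads came from overlapping genes was not tested. Of 37 with an overlapping gene in the tables, 35 had more antisense reads with UV than that gene had sense reads, and for 9 the overlapping gene had 0. The exceptions were C47E8.4, whose 113 antisense reads stood beside 1068 sense reads of hsp-90, which shares 4 bases with it, and yrn-1, whose 92 stood beside 101 sense reads of the non-coding gene F55G1.20, which covers all 105 bases of yrn-1. For sca-1, 451 antisense reads stood beside 2 sense reads of an annotated antisense RNA, K11D9.5, over 306 bases. Of the 63 genes with 3 or more transcripts, none had more than 52.7% of its antisense reads with UV on 1 transcript, the value of lin-42. Among genes with 2 transcripts the share reached 98.3%, the value of blmp-1. How reads shared by transcripts were divided is not given, so nothing is read from these shares.

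Sense reads of the same genes were lower, not higher, with UV. They summed to 52458 with UV and 35495 without, a ratio per non-rRNA read of 0.670 (0.661 to 0.679), beside 0.678 for all protein-coding genes. The median log2 sense ratio was -0.65 over the 160 genes with 20 or more sense reads, beside -0.71 over all 7278 such genes, and its sign turned to 0.55 when scaled to all assigned reads. Of the 146 genes with 50 or more sense reads, 1 was called higher with UV (0.685%, background 3.19%) and 37 lower (25.3%, background 29.7%). A call here and below required 50 or more reads in the pair, a ratio of at least 2 or at most 0.5, and an interval that leaves out 1. The gene called higher was W05H9.3, with 155 sense reads with UV and 24 without. Sense reads outnumbered antisense reads in 101 of the 168 genes with UV and in 162 without. The rule chose genes with few antisense reads without UV and many with UV, so nothing is read from that difference.

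The NRDE-3-bound libraries of the UV experiment were not used by the rule. They held antisense reads of few genes of any kind, 490 protein-coding genes with UV and 384 without, of which 90 and 67 had fewer than 10 reads. Of the reads on protein-coding genes, 4.53% were antisense with UV and 2.15% without, against 76.1% in eri-1 and 96.3% in N2 after cold shock. By contrast, antisense reads fell on 12069 protein-coding genes in total eri-1 RNA with UV, and on 9882 in the NRDE-3-bound eri-1 library after cold shock, which had fewer non-rRNA reads. The reads of these NRDE-3-bound libraries could thus be copies of few molecules, which was not tested, and the ratios, bounds and values of 0 below count reads. Within that limit, 28 of the 168 genes had antisense reads with UV and 4 without, and 138 had none in either. Their reads summed to 2965 with UV and 225 without, a ratio of 21.6 (18.9 to 24.9), beside 2.24 for all protein-coding genes. Of the 24 genes reaching 50 reads in the pair, 22 were called higher with UV (91.7%, background 56.2%), 1 lower (4.17%, background 38.4%) and 1 neither. The 22 genes called higher had 0 reads without UV and reached 50 reads through the library with UV alone, which fixed their call, so nothing is read from their share. With 0 set to 3 reads, the median log2 ratio was 5.86 over the 28 genes with 20 or more reads, beside 3.65 over all such genes. Most of these 28 genes also reached 20 reads through the library with UV alone, so nothing is read from this median.

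Y59C2A.2 had 252 NRDE-3-bound antisense reads with UV and 0 without, at least 138-fold higher with 3 counts per library as the floor. unc-70 had 193 and 0, at least 106-fold higher, although its 46 reads in total RNA with UV were, with those of row-1, the lowest count of the group. mml-1, a Mondo-like helix-loop-helix factor, had 172 and 0, dpy-17 had 157 and 0, and Y67D2.2 had 153 and 0. gei-13 with 138 and 0 and C05B5.16 with 112 and 0 had 127 and 103 CPM in this library with UV, and at most 5.60 CPM in each NRDE-3-bound library after cold shock. The 26 genes with 10 or more reads ran from 33 to 252, so none lay between 10 and that lowest count. gei-8, a nuclear corepressor gene, had 118 with UV and 99 without (ratio 1.96, 1.48 to 2.58). Y17G7B.20 went the other way, with 0 with UV and 96 without. The only gene on X with reads in the NRDE-3-bound library with UV was C52B9.8, with 133 and 0, so the 41 genes on X had 122 CPM there with UV and 0 without, beside 1299.6 CPM with UV and 93.2 CPM without in total RNA.

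NRDE-3-bound reads with UV were set beside total reads with UV as a description, since the rule used the total library. Of the 161 genes with 50 or more reads in that pair, 17 were called higher in NRDE-3-bound RNA (10.6%, background 7.13%) and 136 lower (84.5%, background 89.9%). Scaled to total microRNA reads, 26 were called higher and 58 lower, and all protein-coding genes gave 346 higher and 1405 lower calls in place of 229 and 2889.

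**Figure D4:**
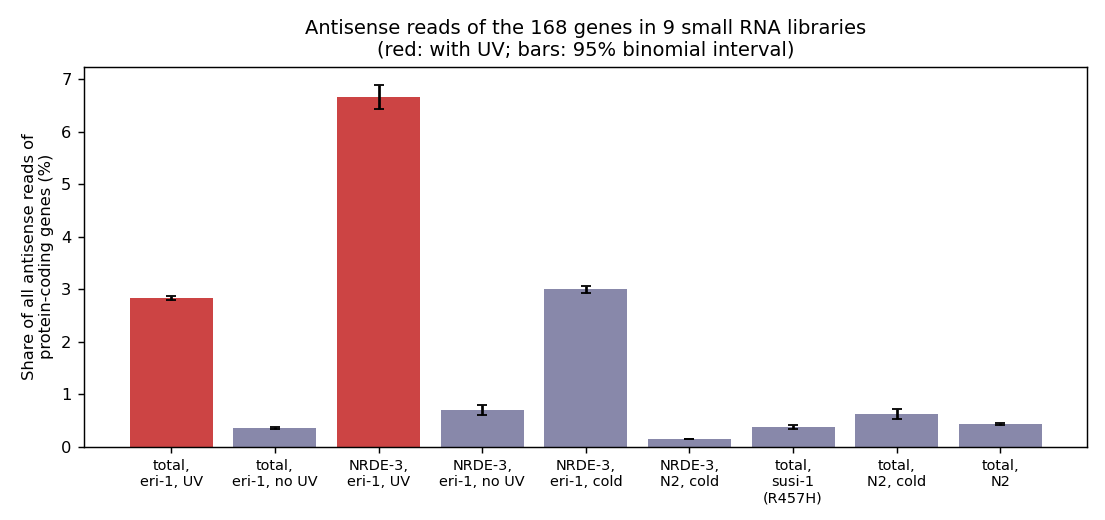
Share of all antisense reads of protein-coding genes that fell on the 168 genes (vertical, %) in each of the 9 small RNA libraries, with 95% binomial intervals. The share was 2.84% with UV and 0.355% without in total eri-1 RNA, the pair the rule used, and 6.67% with UV and 0.692% without in NRDE-3-bound eri-1 RNA.

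The same genes carried many antisense reads in the NRDE-3-bound eri-1 library after cold shock, which had no UV. There they took 3.00% of protein-coding antisense reads (2.92% to 3.07%), against 0.147% (0.141% to 0.154%) in the NRDE-3-bound N2 library after cold shock. At least 1 read fell on 163 and 143 of the 168 genes, and on 9882 and 6794 of all 20535 protein-coding genes, which were not chosen by reads. In CPM this eri-1 library was the highest of all 9 for 121 genes, and 128 genes (76.2%) were above their level in total RNA with UV. Of the other genes with enough reads, 73.0% were also above it. Median levels in this library were 65.7 CPM for the group and 53.2 CPM for those other genes. How many of the other genes were highest in this library was not counted, so the 121 is not read as a trait of the group. Of the 57 genes with 50 or more reads in the cold pair, 54 were called higher in eri-1 than in N2 (94.7%, background 88.6%), 0 lower (background 10.0%) and 3 neither, a share near the background. The median log2 ratio was 4.38 over 115 genes and 4.1 over all 2831 genes with 20 or more reads. Scaled by DESeq2 size factors, which move every gene by -3.44, 25 of the 57 were called higher and 3 lower, and the medians were 0.95 and 0.67. Under that scaling all protein-coding genes gave 455 higher and 195 lower calls, in place of 1134 and 128.

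eef-1A.2 had 288 NRDE-3-bound reads in eri-1 and 29 in N2 after cold shock, a ratio of 53.7 (36.6 to 81.7). dig-1 had 133 and 8 (89.9, 44.3 to 213) and the zinc finger gene die-1 had 80 and 5 (86.5, 35.6 to 274). The 3 genes called neither were lrp-2, a lipoprotein receptor gene with 43 in eri-1 and 432 in N2 (0.538, 0.384 to 0.738), T05H10.4 with 11 and 54, and the zinc finger gene tlp-1 with 26 and 75. lrp-2 alone supplied 432 of the group's 2261 antisense reads in the N2 library. alg-1 stood at 450 CPM in eri-1 and 38.3 CPM in N2 after cold shock, beside 43.2 CPM with UV and 3.53 CPM without in total eri-1 RNA and 0 in both NRDE-3-bound libraries of the UV experiment. gei-13, by contrast, had 138 NRDE-3-bound reads in eri-1 with UV and 1 in eri-1 after cold shock.

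In N2 after cold shock, 7 genes had 50 or more reads in the NRDE-3-bound and total libraries together, and were called higher in NRDE-3-bound RNA (background 65.9%). Each reached 50 reads through the NRDE-3-bound library alone, which fixed its call, so nothing is read from that count. They were lrp-2, tlp-1, alg-1, yrn-1, eef-2, T05H10.4 and sca-1, with 51 to 432 reads bound and 0 to 3 in total RNA. Summed over the 168 genes the ratio was 2.73 (2.32 to 3.23), below the 11.5 of all protein-coding genes. The median log2 ratio was 3.23 over the 32 genes with 20 or more reads, beside 1.31 over all 1043 such genes. In the total library 105 of the 168 genes had no antisense read and 61 had 1 to 9. The minimum of 20 reads was thus reached mainly through the NRDE-3-bound library, so nothing is read from this median. Scaled to all assigned reads, all genes gave 416 higher and 30 lower calls in place of 302 and 64.

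**Figure D5:**
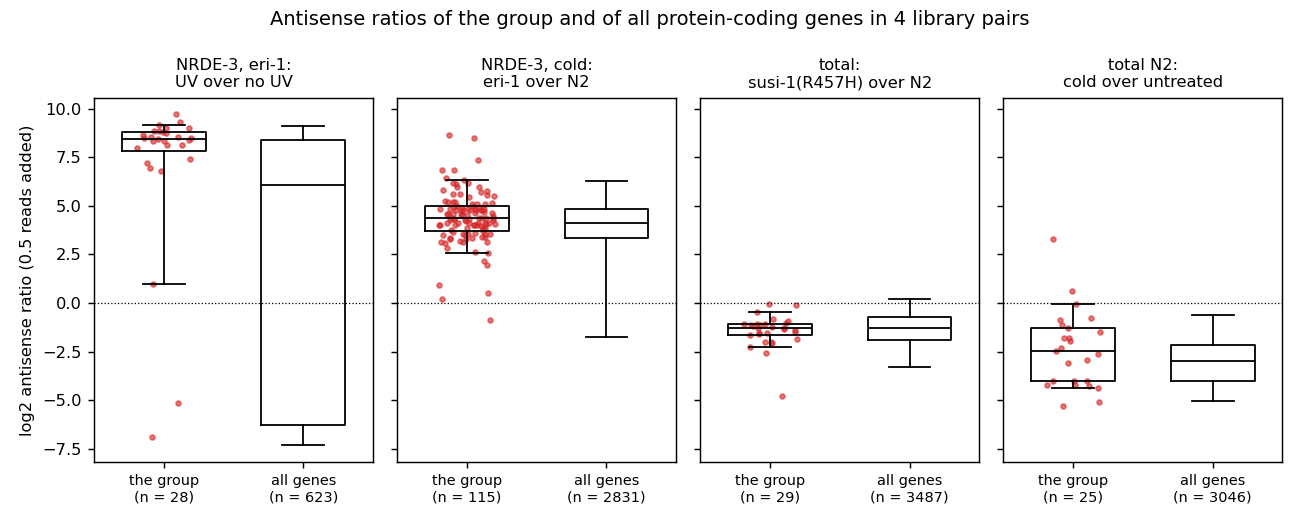
log2 antisense ratios (vertical, 0.5 reads added) in 4 pairs of libraries the rule did not use, for the genes of the group (red points with box) and for all protein-coding genes, each with 20 or more reads in the pair. Boxes show the quartiles and whiskers the 5th to 95th percentiles. Medians are 8.45 against 6.07 for UV in NRDE-3-bound RNA and 4.38 against 4.1 for eri-1 over N2 after cold shock. They are -1.28 against -1.28 for susi-1(R457H) and -2.49 against -2.96 for cold shock in N2. For UV in NRDE-3-bound RNA, most genes of the group reached 20 reads through the library with UV alone, so nothing is read from that median.

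Without UV the genes were low as a sum in every total library, in the eri-1 one by the rule itself. Single genes differed. In N2, 1 gene was above its CPM in total eri-1 RNA with UV, and 1 was in cold-shocked N2. The latter was T28F4.6, at 48.8 CPM there and 20.5 CPM with UV. Antisense reads of the group were 0.370% (0.334% to 0.409%) of all protein-coding antisense reads in susi-1(R457H), 0.619% (0.527% to 0.723%) in cold-shocked N2 and 0.435% (0.413% to 0.457%) in N2. The pairs of susi-1(R457H) with N2 and of cold-shocked with untreated N2 share the N2 library. In susi-1(R457H) the sum was 390 reads, against 1538 in N2, a ratio of 0.428 (0.382 to 0.479) beside 0.503 for all protein-coding genes. The 4 genes with enough reads, eef-2, let-765, paqr-2 and Y67D2.2, were all called lower (background 71.1%), and none was under scaling to total microRNA reads, where all genes gave 143 higher and 247 lower calls in place of 30 and 972. The median over 29 genes was -1.28, the same as over all 3487 genes, and 0.09 under that scaling.

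After cold shock N2 had 158 reads, against 1538 in untreated N2, a ratio of 0.298 (0.252 to 0.352) beside 0.209 for all protein-coding genes. The 3 genes with enough reads, eef-2 with 3 and 63, let-765 with 0 and 56 and paqr-2 with 5 and 45, were called lower (background 94.3%). Scaled to total microRNA reads, 1 of the 3, let-765, was called lower, and all genes gave 65 higher and 500 lower calls in place of 40 and 1078. Genes with more reads after cold shock than in untreated N2 included T28F4.6, with 18 and 5, inx-3, with 8 and 3, and dig-1, with 5 and 2.

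Unstressed total eri-1 RNA, one of the libraries the rule used, had 1016 reads of the group, against 1538 in N2, a ratio of 0.500 (0.461 to 0.542) beside 0.612 for all protein-coding genes. Low counts in this library helped to choose the genes, so nothing is read from these ratios or from the calls. Of 8 genes with enough reads, 4 were called lower in eri-1 (background 21.8%), among them eef-2 with 19 and 63. Over all genes the lower calls numbered 472, 857 when scaled to all assigned reads and 887 when scaled to total microRNA reads. ant-1.1 had 61 in eri-1 and 33 in N2.

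Gene lists of known pathways were read against the UV pair, where 717 of 3802 genes (18.9%) were called higher with UV by the 2-fold rule and the median log2 ratio was 0.33. Cytoskeletal genes were called higher in 6 of 8 measured, translation factors in 6 of 12, cell cycle genes in 6 of 15 and maternal germline genes in 5 of 18, with medians of 1.75, 0.75, 0.89 and 0.53. The group's own members in these lists were nmy-1 and tbb-2, then eef-1A.1, eef-1A.2 and eef-2, then cyb-1, cyb-3 and pcn-1, and then mex-3. DNA damage and repair genes were called higher in 2 of 26 (median 0.38), genes of the small RNA pathway in 4 of 34 (0.33, with alg-1 and alg-2 in the group), heat shock genes in 1 of 11 (0.67), ribosomal protein genes in 1 of 6 (0.37), oxidative stress genes in 1 of 3, cuticle collagens in 0 of 4 (from a list that leaves out dpy-17 and dpy-14), germline WAGO targets in 0 of 5 and ERGO-1 targets in 1 of 1, and no vitellogenin gene had enough reads. The histone genes that the rule set aside were called higher in 25 of 30, with a median of 2.79. Scaled to total microRNA reads, which moves every gene by -0.64, all genes gave 274 higher and 333 lower calls. Medians turned below 0 for DNA damage, maternal germline, small RNA pathway and ribosomal protein genes (-0.26, -0.11, -0.31 and -0.27). Those of oxidative stress genes, cuticle collagens and germline WAGO targets, already below 0, were at -0.66, -0.68 and -0.78. All other lists with enough reads stayed above 0. Each gene moves by the same amount, and the lists that turned were at or above the median of all genes before. Nothing is read from their signs. Under that scaling 101 of the 168 genes still reached the 4-fold limit of the rule. Scaled to all assigned reads, which moves every gene by 1.20, 3172 genes were called higher and 1 lower.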

How the data were processed

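The deposited small RNA tables hold counts of reads per transcript as whole numbers, in a sense and an antisense column per the file headers. Bowtie2 is named in the submitters' processing notes; its version, the genome build, the annotation and the handling of reads with several matches are not given in the sources used here. Small RNAs between 20 and 30 nt were treated with phosphatase and kinase before ligation, per the labels, so siRNAs with 5′ triphosphates enter along with fragments of longer RNAs.

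Protein-coding entries (30750) were summed by gene ID to 20535 genes, of which 20231 matched Ensembl 115 (WBcel235); 304 did not. Names and coordinates, also for the names set aside, come from that match. Truncated lines, at most 0.00052% of reads, were left out, and the 5 rRNA tail libraries were not used. CPM is per 1000000 non-rRNA reads. Ratios have exact conditional binomial (Clopper-Pearson) intervals; a library at 0 was set to 3 counts for a bound. A floor of 3 counts was 0.960 to 8.39 CPM by library. Medians cover genes with 20 or more reads. The rules were tried on simulated counts with counting error only, so spread between samples and copied reads were not covered. Alternatives used DESeq2 1.42.0 and edgeR 4.0.16 factors (R 4.3.3), computed for scaling only. Other steps used Python 3.11.15 and scipy 1.17.1.

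The group, its lists and its roles were chosen with earlier results of these data known. Genes were named by most reads with UV (15), highest lower bound (10), most NRDE-3-bound reads (5 with UV, 5 in N2), the 3 highest and 3 lowest in each other pair, the 3 on each side of the 4-fold limit and the 5 with most reads of an overlapping gene. Further genes were named by role after their values were seen.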

Additional observations from a re-analysis of the deposited data

Results flagged for a closer look

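In the group, 2 genes moved in opposite directions with UV in total and NRDE-3-bound eri-1 RNA, and the difference was not tested. Over all protein-coding genes with 50 or more reads in the NRDE-3-bound pair, 38.4% were called lower with UV. Y17G7B.20 had 175 antisense reads with UV and 14 without in total RNA, and 0 with UV and 96 without in NRDE-3-bound RNA, at least 19.5-fold lower. T28F4.6 had 64 with UV and 3 without in total RNA, and 0 with UV and 29 without in NRDE-3-bound RNA, at least 5.89-fold lower, but with too few reads in that pair for a call. Both folds set 3 counts for the library at 0 and rest on 1 library per treatment.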

How the results depend on the processing

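No paired analysis was possible because each group has 1 library, and no library could be left out of a group for the same reason. The cause of the changes below was not tested except where the setting itself sets them. The number of genes in the group, 168, was 907 with scaling to all assigned reads, 101 with total microRNA reads, 454 with 20 or more reads required, 74 with 100 or more, 84 at a ratio of 8 or more and 64 with the lower bound at 4 or more; the larger lists hold all 168 and the smaller ones hold only genes of the 168. The share on chromosome X, an alternative added after seeing the data, was then 7.39%, 31.7%, 23.6%, 20.3%, 35.7% and 35.9%. With all assigned reads and with total microRNA reads in turn, the median log2 ratio was 7.76 and 9.70 for UV in NRDE-3-bound RNA (7.46 with 1 added to both counts, 5.86 with 0 set to 3 reads, beside 3.65 over all genes), -2.06 and 0.09 for susi-1(R457H), -4.47 and -0.47 for cold shock in N2, 1.43 and 2.73 for eri-1 over N2 after cold shock (0.95 with DESeq2 and 1.05 with edgeR TMM factors) and 0.55 and -1.29 for sense reads with UV (-0.36 and -0.34 with DESeq2 and TMM factors). As above, nothing is read from the medians for UV in NRDE-3-bound RNA. Without a minimum of reads the medians were -1.01 for susi-1(R457H) and -1.27 for cold shock. The other 28 of 55 settings stayed within a factor of 1.5 for counts or within a 95% interval taken over the genes of the group. That interval treats the genes as the units and measures neither counting error nor spread between samples. It was used only to sort the settings. Few of the 168 genes had 50 or more reads in the pairs of total N2 libraries, 4 for susi-1(R457H) and 3 for cold shock, and few genes of any kind did in the NRDE-3-bound UV pair (534) and in N2 after cold shock, NRDE-3-bound and total (458).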
